A study of Mus musculus with 6 samples.

Results

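Cytosolic ribosomal protein genes encode the protein part of the ribosomes that translate nuclear messages. In the livers of mice given 1 dose of ethanol, 81 of the 87 measurable genes of this set were higher than in control livers and 2 were lower, at a Benjamini-Hochberg adjusted p under 0.05 in edgeR's quasi-likelihood test on TMM-scaled counts. Of all 16717 rows tested, 21.5% were called higher and 21.5% lower. With counts scaled to library size alone, 16 of the 87 were higher and 4 lower. The genes were taken by name: symbols beginning Rpl or Rps and a number, with Rplp0 to Rplp2 and Rpsa, without the Rps6k kinases and without pseudogenes. The rule found 90 of the 28880 rows of the deposited table. Of these, 77 are the canonical ribosomal proteins (43 of the large subunit, 31 of the small subunit and the 3 genes of the P stalk), and 13 are paralogs or other genes that share the name. Rpl3l, Rpl39l and Rpl27rt, all of the last kind, had between 0 and 9 counts per library and were too low to test.

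A mammalian ribosome joins a small subunit, which reads the message, to a large subunit, which forms the peptide bond. Its proteins are assembled with ribosomal RNA in the nucleolus, in equal numbers for nearly all of them, by a large set of biogenesis factors. The messages of ribosomal proteins begin with a C and a run of pyrimidines, the 5′ terminal oligopyrimidine (TOP) motif, through which the kinase complex mTORC1 and the RNA-binding protein Larp1 control their translation.

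All 6 livers came from male wild type C57BL/6J mice of 6 to 8 weeks. The 3 ethanol mice had been fasted for 12 h and received 50% (v/v) ethanol by mouth at 6 g/kg, 24 h before the liver was taken. The 3 control mice were kept without ethanol. A fast is described only for the ethanol model, so ethanol and fasting cannot be told apart, and all libraries carry the same batch label. The libraries held 60514417 to 74210869 counts. Mitochondrially encoded genes took 8.50% to 9.26% of the counts in ethanol livers and 5.45% to 7.40% in controls, and the 10 most abundant rows took 20.2% to 21.4% against 17.6% to 18.0%. The TMM factors, which scale a library to the bulk of its genes, were 0.768 to 0.836 for the ethanol livers and 1.26 to 1.27 for the controls. With scaling to library size alone, the median log2 fold change of all rows tested moved from -0.04 to -0.71. Fold changes below are given as fitted and are to be read against the median of their own scaling. In bulk tissue, a change in the number of cells of a type and a change in RNA per cell cannot be told apart.

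The start of a ribosomal protein message is where the TOP motif lies, and the windows shown here run from 15 bases before the first annotated base to 15 bases from it on. They were read from RefSeq promoter sequences (GRCm38.p6), in which 49 of the 77 canonical genes had a single entry. Capitals mark the longest run of pyrimidines within 10 bases on either side of the start. The first 6 genes carry a run of 9 bases or more, and they include the member with the largest fold change (Rpl27a), the one with the smallest among the canonical members (Rpl7a) and Rps6, the protein phosphorylated by S6 kinase.
Rpl27a (chr7:109519180-109519209, + strand): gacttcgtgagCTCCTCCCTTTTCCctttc
Rps27 (chr3:90213634-90213663, - strand): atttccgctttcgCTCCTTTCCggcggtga
Rps6 (chr4:86857353-86857382, - strand): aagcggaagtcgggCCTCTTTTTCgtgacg
Rps10 (chr17:27635230-27635259, - strand): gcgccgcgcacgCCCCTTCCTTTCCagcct
Rpl38 (chr11:114668565-114668594, + strand): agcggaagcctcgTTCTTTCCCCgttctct
Rpl7a (chr2:26910792-26910821, + strand): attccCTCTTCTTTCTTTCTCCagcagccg
Rps28 (chr17:33824548-33824577, - strand): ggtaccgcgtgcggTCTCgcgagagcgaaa
Rplp0 (chr5:115559452-115559481, + strand): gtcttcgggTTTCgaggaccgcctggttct
Rpl11 (chr4:136053379-136053408, - strand): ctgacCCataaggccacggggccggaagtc
The last 3 genes had no run of 8 in this window at the annotated start. A run of 8 pyrimidines or more stood within 10 bases of the start in 16 of the 49 genes (32.7%), against 7.43% of 32851 promoters of the same length. A C at the first base followed by 4 pyrimidines was found in 11 of them (22.4%) against 2.51%. In the 300 bases from 250 before the start to 50 after it, the letters CCGGAAG, the core bound by ETS factors such as GABPA, stood on either strand in 21 genes (42.9%) against 8.86% of all promoters, and they can be seen near the end of the Rpl11 window. The GC box GGGCGG stood in 59.2% against 35.7%, AAGATGGC (YY1) in 6.12% against 2.75%, GCGCATGC (NRF1) in 4.08% against 2.71%, the E-box CACGTG bound by Myc in 6.12% against 7.15%, and TATAAA in 10.2% against 13.6%. The ETS core and the YY1 letters share AAG and can overlap. The median log2 fold change was 0.90 in the genes with the pyrimidine run and 0.88 in those without it, and 0.90 with CCGGAAG and 0.88 without. It was 0.80 with the C and 4 pyrimidines and 0.89 without, and 0.84 with the GC box and 0.89 without. A match of letters is a description of the annotated start and not a site of action, and it depends on where RefSeq places that start.

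The canonical genes lay close together. Of the 77, 76 were higher in ethanol livers, Rpl7a being the exception, and their median log2 fold change was 0.89. The quartiles lay at 0.75 and 0.96, and the standard deviation across the 77 genes was 0.23, against 1.51 across all rows tested. These spreads are not matched for level or error. The median FPKM was 50.3 in the canonical genes and 1.49 in all rows, and the median SE 0.11 and 0.26. Within 0.3 of the median lay 68 of the 77 genes. The large subunit had a median of 0.88, with 42 of 43 genes higher, the small subunit a median of 0.89, with 31 of 31 higher, and the P stalk a median of 0.73, with 3 of 3 higher. In CPM (counts relative to the TMM-scaled library size), all ethanol libraries lay above all control libraries in 81 of the 87 members tested, against 28.0% of all rows, and below them in 2, against 31.0%.

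**Figure D1:**
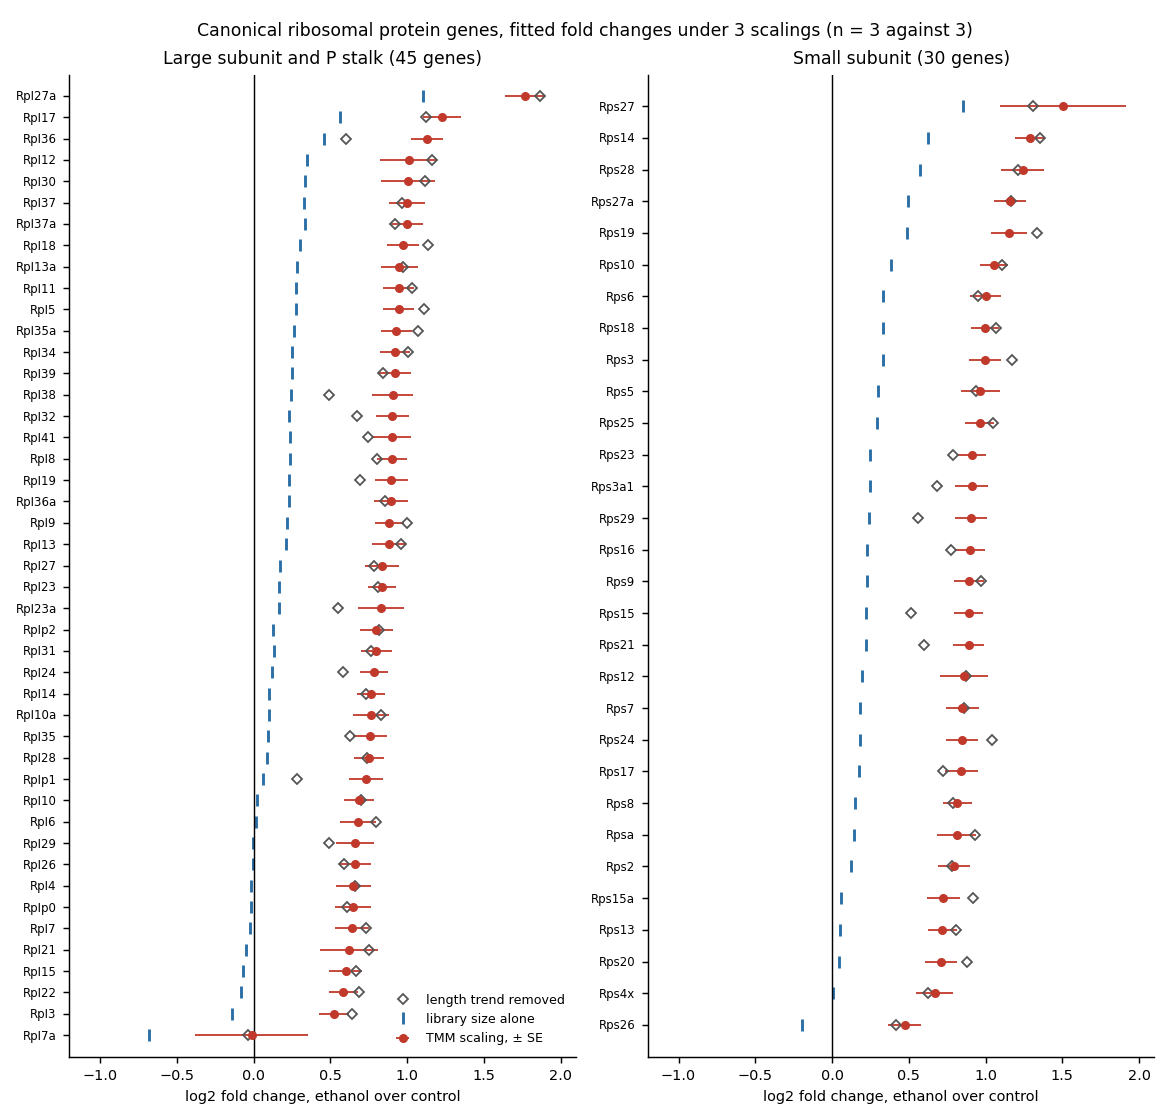
Fitted log2 fold changes (x axis, ethanol over control, 3 libraries each) of 75 of the 77 canonical genes, one per line, with TMM scaling (filled circles, bars ± SE), with the length trend removed (diamonds) and with scaling to library size alone (blue ticks). Circles sit between 0.47 and 1.77 for all genes but Rpl7a, at -0.01; the ticks of several genes, Rps26 and Rpl3 among them, lie below 0.

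The size of this change depended on the scaling. In each library the median of the canonical genes, as log2 CPM minus the control mean, was 0.94, 0.86 and 0.81 in the ethanol livers against -0.08, 0.02 and 0.05 in the controls with TMM. With library size alone the same medians were 0.24, 0.26 and 0.09 against -0.08, 0.02 and 0.05. The groups did not overlap on either scale. The median of the 87 members exceeded the median of all rows by 0.92 with TMM, and scalings that move all genes of a library alike keep that distance by construction. Fits that can move it gave 0.67 and 0.80 (limma on FPKM), 0.60 (rows with a mean FPKM of 5 or more), 0.76 (length trend removed), 0.59 (spliced length trend removed), 0.34 (length and abundance trends removed), 0.95 (DESeq2) and 0.86 to 0.99 (1 library left out). With library size alone 16 members were higher (7.39% of all rows) and 4 lower (48.3% of all rows), and their median was 0.21. On that scale the ethanol libraries lay above the controls in 37 members (9.55% of all rows), below them in 5 (57.3%) and overlapped in 45.
The members summed to 1.10%, 1.15% and 0.982% of the counts in the ethanol livers and to 0.902%, 0.980% and 0.997% in the controls. These shares, 1.08% ± 0.0877 and 0.960% ± 0.0504 (SD, n = 3 each), overlapped. As a share of all FPKM the members took 1.22% ± 0.123 and 1.20% ± 0.00736 (SD, n = 3 each). Counts of genes named Rpl were 1.36 ± 0.0201 times those of genes named Rps in ethanol livers and 1.44 ± 0.00562 times in controls (SD, n = 3 each), and these ratios did not overlap.

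**Figure D2:**
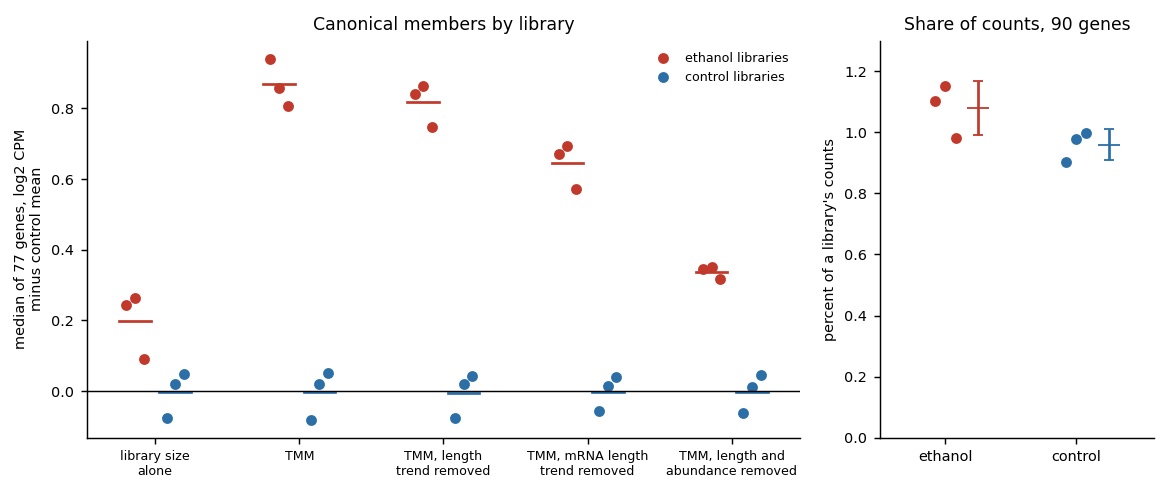
Left, the median over the 77 canonical genes of log2 CPM minus the control mean (y axis) in each library under 5 scalings, with the mean of 3 libraries as a bar. Right, the percentage of each library's counts held by the 90 members, with mean ± SD: the ethanol libraries lie above the controls under each of the 5 scalings on the left (0.81 to 0.94 with TMM, 0.09 to 0.26 with library size alone), and the shares on the right overlap.

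Across all rows tested, short genes had higher fold changes than long genes with TMM, and ribosomal protein messages are short. The median log2 fold change of all rows was 0.31 in the shortest of 5 equal groups of genes (61 to 1895 bases as back-calculated from count and FPKM), -0.03, -0.13 and -0.18 in the next groups and -0.19 in the longest. Of the members tested, 45 fell in the shortest group and none in the longest. The members in the first 4 groups had medians of 0.89, 0.87, 0.81 and 0.85. Across the 77 canonical genes the fold change had a Spearman correlation of -0.01 with the FPKM length and -0.24 with the spliced mRNA length, as a description of genes that share the same 6 libraries.
The trend of each library with length was then removed, by a smooth curve fitted through all rows tested. After removal 78 members were higher (23.9% of all rows) and 1 was lower (17.9%), with a median of 0.79 against 0.03 for all rows. Beyond 1 on the log2 scale lay 20 members (11.4%). Across the canonical genes the fold change then had a Spearman correlation of 0.61 with the FPKM length, so that longer members had higher values. Rplp1, one of the shortest members with 499 bases of exon in GENCODE M21, went from 0.73 to 0.28 (adjusted p = 0.0556 in edgeR). The others that were no longer called were Rps27rt and Rpl35rt among those called before, and Rpl7l1 among the lower ones. In 81 members the ethanol libraries still lay above the controls, against 30.4% of all rows.

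**Figure D3:**
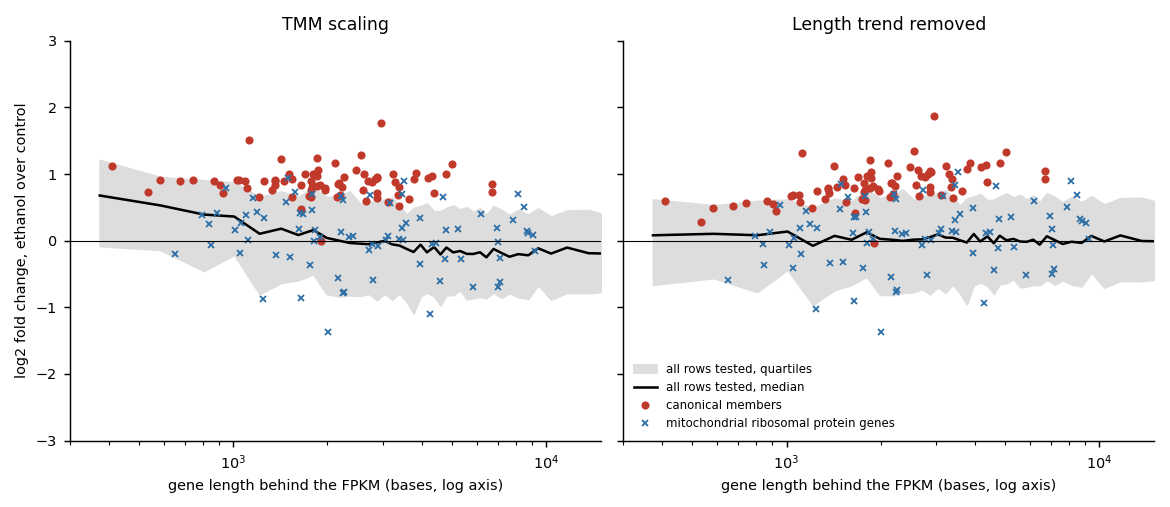
Log2 fold change (y axis) against gene length on a log axis, with TMM (left) and after removal of the length trend (right). The black line and grey band are the median and quartiles of all rows tested in 40 groups of length; canonical members (red, median 0.89 left and 0.81 right) lie above the line at nearly all lengths, and mitochondrial ribosomal protein genes (blue crosses) scatter around it.

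The length behind the deposited FPKM, back-calculated from count and FPKM, was 1.07 times the union of all exons of all isoforms in GENCODE M21 for each of the 77 canonical genes, to within 1%. The factor is common to these genes and does not alter a trend with log length among them. Of 16282 rows tested that had a union of exons, 71.3% lay within 1% of the factor, and the ratio ran from 0.207 to 44.2. For the canonical genes the back-calculated length had a median of 1906 bases, whereas the spliced principal transcript in GENCODE M21 has a median of 886 bases. For Rps19 the union of exons and the spliced transcript are 4685 and 774 bases, so that a short message is placed among long genes. With the trend fitted on the spliced length instead, 76 members were higher (23.7% of all rows) and 1 lower (17.9%), with a median of 0.63. Abundance moved with the fold change as well: the median of all rows was -0.41 in the lowest of 5 equal groups of abundance and 0.27 in the highest, which holds 73 of the 87 members, at a median of 0.86. With the trends of length and abundance removed together, 48 members were higher (18.6% of all rows) and 3 lower (19.7%), and their median was 0.33 against -0.01 for all rows. The 3 lower members were Rplp1, Rpl7l1 and Rps23rg1. The part of length and of abundance in the change was not tested beyond these fits.

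Among the large subunit genes, Rpl27a had the largest fold change. The gene lies on chromosome 7 at 109118354 to 109121574 in the deposited table. Its CPM was 404, 354 and 313 in the ethanol livers and 102, 99.4 and 113 in the controls, and the lowest ethanol value was far above the highest control value. The change was 3.41-fold (log2 1.77 ± 0.13 SE, adjusted p = 0.000185 in edgeR), and it was 1.86 with the length trend removed and 1.10 with library size alone (adjusted p = 0.000613 in edgeR). It was the only member past a log2 fold change of 1 on the last scale. Small nucleolar RNA genes, Snora3 among them, lie inside it on the same strand, and how reads that overlap several genes were counted is not given in the sources used here.
Rpl17, whose protein lines the exit tunnel of the peptide, rose by 1.23, but 7 rows of its processed pseudogenes held 66063 counts against its own 15649, so its level is uncertain. Rpl36, the shortest canonical gene with 383 bases of exon, had a CPM of 67.2, 63.9 and 73.8 against 31.7, 29.3 and 32.7, without overlap. Its log2 fold change of 1.13 became 0.60 without the length trend. Rpl12, a protein of the stalk base, rose by 1.01 with TMM and had 1 ethanol library at 149 and the others at 219 and 237. It was not called with library size alone (0.35, adjusted p = 0.182 in edgeR), where the groups overlapped.
Rpl5 and Rpl11 form with 5S ribosomal RNA the particle that binds Mdm2 and stabilises p53. CPM of Rpl5 was 273, 289 and 254 in the ethanol livers against 140, 142 and 141, and that of Rpl11 was 226, 210 and 203 against 106, 109 and 117. Both genes rose, by 0.94 and 0.95, with the ethanol libraries well apart from the controls. Rpl38, which selectively aids translation of Hox messages in development, rose by 0.91 (20.0, 21.9 and 18.2 against 9.77, 10.3 and 12.0), and by 0.49 without the length trend. Rpl10, the late-joining protein next to the peptidyl transferase centre, rose by 0.69 with TMM. None of these 4 genes was called with library size alone, at 0.28 for Rpl5 and Rpl11, 0.24 for Rpl38 and 0.02 for Rpl10.
The lowest canonical genes of the large subunit were Rpl7a, Rpl3, Rpl22, Rpl15 and Rpl21. Of these, Rpl15 and Rpl21 rose by 0.60 and 0.62 with TMM and lay at -0.07 and -0.05 with library size alone. Rpl7a stood apart through 1 control library: its CPM was 48.8, 49.3 and 51.2 in the ethanol livers and 31.4, 85.3 and 33.8 in the controls. The second control exceeded every ethanol library and the other controls lay below them. Its log2 fold change was -0.01 ± 0.37 (SE, adjusted p = 0.983 in edgeR) with all libraries and 0.61 (adjusted p = 0.0176 in edgeR) without that control. The 7 rows of its pseudogenes held 40906 counts against its own 20859, and with those counts added the value was 0.54. Rpl3, which reaches towards the peptidyl transferase centre, rose by 0.52 with TMM (251, 267 and 235 against 172, 175 and 177) and lay at -0.14 with library size alone. Rpl22, an RNA-binding protein dispensable for translation, rose by 0.58 with TMM and lay at -0.08 with library size alone.

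The P stalk recruits elongation factors to the ribosome. Rplp0, its anchor, had a CPM of 527, 493 and 454 against 279, 331 and 330, and rose by 0.65 with TMM (-0.02 with library size alone). Rplp1 stood at 208, 198 and 211 against 110, 128 and 134, and Rplp2 at 55.4, 47.8 and 55.2 against 29.0, 32.6 and 29.4. Rplp2 rose by 0.80 and, unlike its partner Rplp1, kept this value without the length trend (0.82). In TMM-scaled CPM the groups did not overlap for any of the 3 genes, and with library size alone they overlapped for all 3. With length and abundance removed, Rplp2 was higher and Rplp1 lower, with a median of -0.06 for the 3 genes. The difference between the 2 partners was not tested.

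In the small subunit, Rps27 had the largest fold change and the widest error. Its CPM was 16.6, 33.0 and 17.9 in the ethanol livers and 11.5, 8.08 and 4.14 in the controls. The second ethanol library was well above the other 2, and the groups did not overlap. The change was 2.84-fold (SE 0.41 on the log2 scale, adjusted p = 0.0233 in edgeR), and with library size alone the groups overlapped. The call was lost without the second ethanol library (adjusted p = 0.0632 in edgeR), the second control (0.0760) or the third control (0.0550). It was also lost with library size alone (0.85), with the spliced length trend removed (0.98) and with length and abundance removed (1.13). Its near copies Rps27l and Rps27rt are described below.
Rps14, whose loss causes the anaemia of the 5q- syndrome, stood at 237, 223 and 231 against 89.1, 94.6 and 98.9, 2.45-fold apart (log2 1.29 ± 0.10 SE, adjusted p = 0.000190 in edgeR). The gene overlaps Ndst1 on the other strand, and use of strand in counting is not given in the sources used here. Rps28 rose by 1.24 (16.1, 15.9 and 16.9 against 6.24, 7.94 and 6.48) and overlaps Kank3 in the same way. Rps27a, which is made as a fusion with ubiquitin, rose by 1.16 (192, 194 and 180 against 76.2, 86.9 and 90.4). Rps19, the gene most often mutated in Diamond-Blackfan anaemia, rose by 1.15 (86.5, 77.3 and 74.4 against 33.3, 39.5 and 34.2). These 4 genes were also higher with library size alone, by 0.62, 0.57, 0.49 and 0.49.
Rps6, the substrate of S6 kinase, lies on chromosome 4 at 86772897 to 86775649. Its CPM was 381, 379 and 344 against 174, 188 and 190, without overlap, and its log2 fold change was 1.00 ± 0.10 (SE, adjusted p = 0.000527 in edgeR). It was among the 15 members past a log2 fold change of 1 at adjusted p under 0.05 (10.4% of all rows), of which 8 belong to the large and 7 to the small subunit, and Rps18 and Rps3 stood just under that threshold. Rpsa, also known as the laminin receptor, rose by 0.81 with TMM (698, 656 and 600 against 322, 390 and 400). It was not called with library size alone (0.14), where the groups overlapped, or with length and abundance removed (0.24).
At the low end Rps26, which contacts the message near the exit channel, rose by 0.47 with TMM (93.9, 83.4 and 77.6 against 58.3, 63.0 and 62.4), with no overlap. With library size alone it lay at -0.20 and its ethanol libraries were all below the controls. The call with TMM was just lost without the first control (0.44, adjusted p = 0.0502 in edgeR). Rps4x rose by 0.67 with TMM and lay at 0.00 with library size alone. Rps20 (0.71) and Rps13 (0.72) were also among the lowest of the small subunit.

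**Figure D4:**
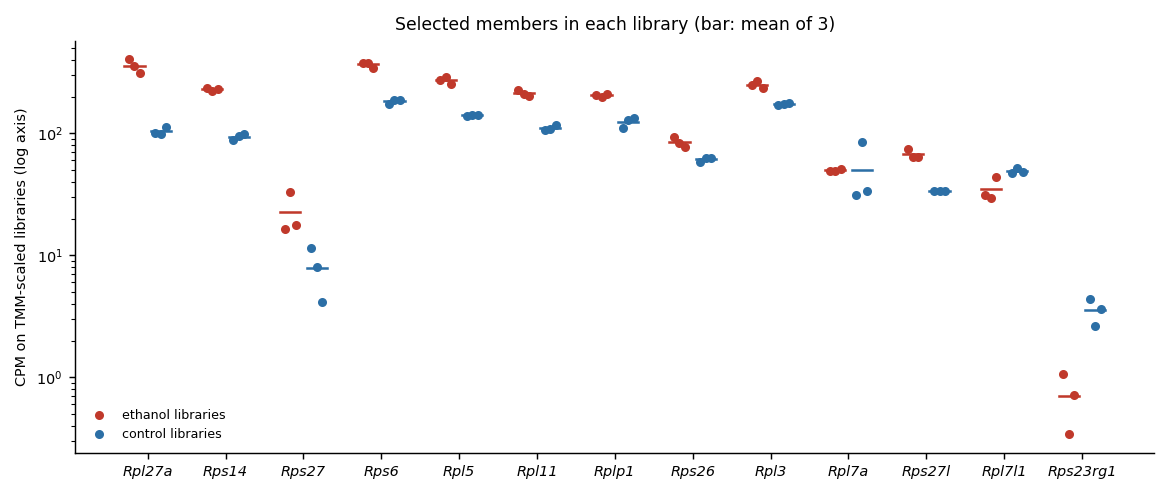
TMM-scaled CPM (y axis, log scale) of 13 members in each ethanol and control library, with bars at the mean of 3. The libraries of Rpl27a (313 to 404 against 99.4 to 113) lie far apart, the second control of Rpl7a (85.3) lies above all ethanol libraries, and Rps23rg1 is lower in the ethanol livers. With library size alone, Rps26 and Rpl3 lie at -0.20 and -0.14 (log2).

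By level per length, the 10 highest members were Rplp1 (299 FPKM, mean of 6 libraries), Rps2 (252), Rpl4 (237), Rps3a1 (227), Rplp0 (221), Rps15 (197), Rpl19 (178), Rps6 (154), Rpl10 (151) and Rpsa (145). The canonical genes ranged from 3.54 FPKM for Rpl21 to Rplp1, with a median of 50.3, against 1.49 for all rows tested. The level of Rpl21 is uncertain, since 12 pseudogene rows held 10284 counts against its own 5375. Since FPKM divides by a length that counts every exon, it understates genes with long retained-intron isoforms. All 10 were higher with TMM, by 0.65 to 1.00, and Rpl4 and Rplp0 lay at -0.01 and -0.02 with library size alone. With the trends of length and abundance removed, Rplp1 was lower (-0.33), and Rplp0, Rps15 and Rpl4 lay at -0.06, -0.05 and -0.03. Across the canonical genes the Spearman correlation of fold change with mean FPKM was -0.17, given as a description.

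The paralogs and namesakes were more mixed. Of the 10 tested, 5 were higher and 2 lower with TMM (21.5% and 21.5% of all rows), with a median of 0.67. Library size alone gave 1 higher and 4 lower (7.39% and 48.3% of all rows), with a median of 0.02. Rps27l, a paralog of Rps27 and a p53 target, stood at 73.9, 64.1 and 63.5 against 33.9, 33.9 and 34.0, and rose by 0.99 ± 0.10 (SE). Rpl22l1, the paralog of Rpl22, rose by 0.92 with TMM (16.7, 14.2 and 20.3 against 9.14, 7.75 and 10.1). It was not called with library size alone (0.25, adjusted p = 0.231 in edgeR), where the groups overlapped. Rpl36al, a copy of Rpl36a, rose by 0.57 with TMM and lay at -0.10 with library size alone, beside 0.90 and 0.23 for Rpl36a itself.
Rps23rg1, a gene derived from a copy of Rps23, moved the other way. Its CPM was 1.06, 0.343 and 0.714 in the ethanol livers and 4.38, 2.62 and 3.64 in the controls, and it was 1 of the 13.8% of all rows past a log2 fold change of -1. It fell by 2.33 on the log2 scale (SE 0.44, adjusted p = 0.00530 in edgeR) and was also lower with library size alone and with each of the 3 trends removed, while Rps23 rose by 0.91. It overlaps the pseudogene Rps23-ps2 on the other strand. Rpl7l1, a biogenesis factor related to Rpl7, stood at 31.4, 29.3 and 43.9 against 47.3, 52.2 and 48.6 and fell by 0.50 (adjusted p = 0.0442 in edgeR). This call was lost when any library but the third ethanol one was left out (-0.53 to -0.40), and without the length trend (-0.37). It was kept with library size alone (-1.18) and with length and abundance removed (-0.70). The parent Rpl7 had values of 0.73 without the length trend and -0.02 with library size alone. The differences between paralog and parent were not tested.
The retrocopies Rps27rt (0.97) and Rpl35rt (0.80) were called higher, and Rps27rt overlapped between groups (32.6, 15.4 and 25.5 against 9.16, 12.6 and 15.8). Its call was lost without the first ethanol library (0.70) or any 1 control (0.78 to 1.17). Such copies can share reads with their parents. Rpl37rt, a row the table types as a long non-coding RNA, had CPM of 0.348 to 1.68 in ethanol and 0.128 to 0.958 in control livers, and did not pass the test (0.77, adjusted p = 0.512 in edgeR). Rps4l had a value of -0.18 with TMM, where the groups overlapped, and was lower with library size alone (-0.85, adjusted p = 0.00984 in edgeR). Rps19bp1, which is no ribosomal protein but binds Rps19 and Sirt1, had a value of 0.26 with TMM and -0.41 with library size alone.

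Genes around the ribosome are given here against the share of all rows called, 21.5% higher and 21.5% lower with TMM, and 7.39% higher and 48.3% lower with library size alone. Of the ribosomal proteins that the name rule misses, Fau rose by 1.13 and Rack1 by 0.69 with TMM (0.46 and 0.02 with library size alone). Of 15 other TOP messages, which encode mostly translation factors, 9 were higher and none lower with TMM, with a median of 0.45, whereas with library size alone none were higher and 6 lower, with a median of -0.21. The elongation factors Eef2 (0.95) and Eef1a1 (0.63) and Tpt1 (1.00) rose with TMM, and none of them was called with library size alone (0.28, -0.04 and 0.33). Pabpc1, the poly(A)-binding protein, had a value of 0.26 with TMM and -0.41 with library size alone. Of 78 mitochondrial ribosomal protein genes, 18 were higher and 13 lower with TMM, with a median of 0.10. Library size alone gave 0 higher and 51 lower, with a median of -0.57. Among the most abundant of these, Mrpl12 (0.41 with TMM, -0.26 with library size alone) and Mrpl18 (0.94 with TMM, 0.27 and no longer called with library size alone) rose. Mrps7 (0.13) did not pass the test, nor did Mrpl38 (0.69), which stood at 142 CPM in ethanol library 3 and at 49.9 to 51.9 in the other 5 libraries.
Of 49 ribosome biogenesis factors, 15 were higher and 6 lower with TMM (median 0.31), with 2 past a log2 fold change of 1 and 4 past -1. Library size alone gave 2 higher and 21 lower (median -0.36). Eif6, which keeps the large subunit from joining too early, rose by 1.65 with TMM, and the nucleolar GTPase Gnl2 by 1.79, with SE of 0.11 and 0.28. The processing factor Rrp1 rose by 0.72 with TMM, and nucleolin (Ncl) had a value of 0.11 with TMM and -0.55 with library size alone. RNA polymerase I, which transcribes ribosomal RNA, gave 4 higher and 3 lower of 14 genes with TMM (median 0.13). Library size alone gave 2 higher and 6 lower (median -0.54). Polr1d (1.39) and Taf1d (SE 0.14, adjusted p = 0.000421 in edgeR) rose with TMM, the upstream binding factor Ubtf fell by 0.60, and Polr1a had a value of -0.07.
Of 19 genes of mTORC1 and of TOP translation, 5 were higher and 7 lower with TMM, with a median of -0.21. Library size alone gave 2 higher and 12 lower, with a median of -0.87. Larp4 rose by 0.69 with TMM, the translational repressor Eif4ebp2 fell by 0.50 and the mTOR inhibitor Deptor fell by 0.61, while Larp1 had a value of -0.23. Of 10 genes of the Myc family, 5 were higher and 1 lower with TMM, with a median of 0.63. Library size alone gave 2 higher and 2 lower, with a median of -0.04. Myc itself rose by 3.52 ± 0.69 with TMM (SE, adjusted p = 0.00654 in edgeR), Mlx by 0.58 and Mxi1 by 0.67, and Mxd4 fell by 0.67. Mlx lay at -0.09 with library size alone. Without 1 library or another, the calls of Mrpl12, Mrpl18, Ubtf, Eif4ebp2 and Mlx were lost (for example Mrpl18 without the first control, adjusted p = 0.0585 in edgeR).

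**Figure D5:**
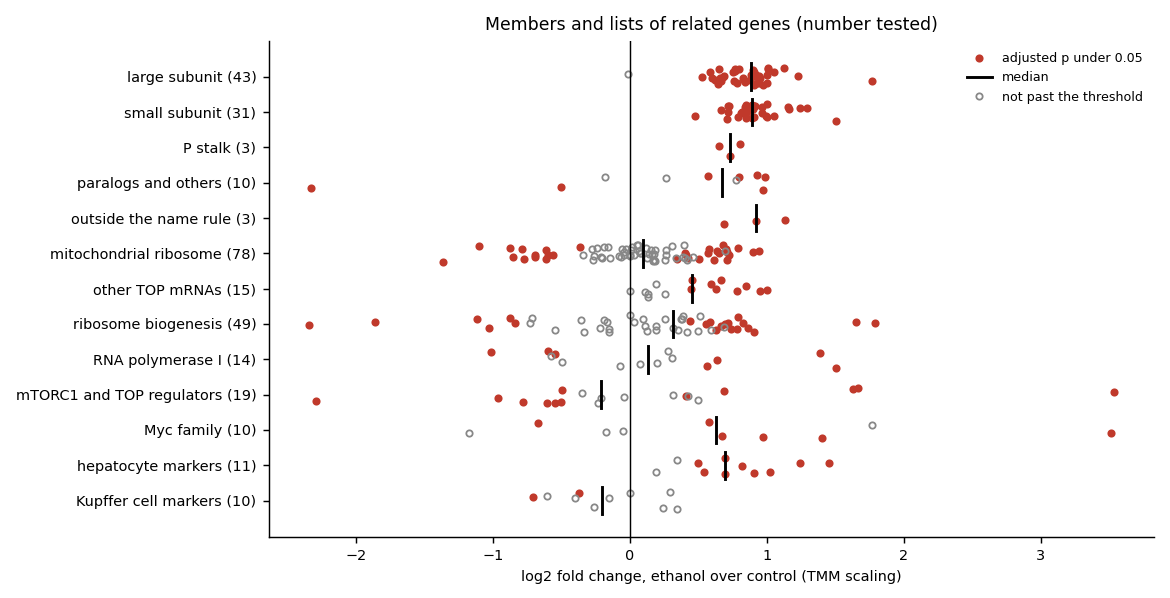
Log2 fold changes with TMM (x axis) of the members and of lists of related genes, each point a gene, filled where adjusted p was under 0.05, with the median as a bar and the number tested in brackets. The canonical groups are narrow around 0.88 and 0.89, while the biogenesis, polymerase and mitochondrial lists spread to both sides of 0. With library size alone the median of all rows lies at -0.71 and that of the mTORC1 list at -0.87. The medians of the mitochondrial, other TOP, biogenesis, polymerase and Myc lists then lie between -0.57 and -0.04.

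Markers of the cell types in liver are given here beside the shares of all rows called. Those shares were 21.5% higher and 21.5% lower with TMM, and 7.39% and 48.3% with library size alone. Of 11 hepatocyte markers found, 9 were higher and none lower with TMM, with a median of 0.69, which was 0.02 with library size alone. Removal of the trends of length and abundance left 1 higher and 3 lower (18.6% and 19.7% of all rows), with a median of -0.30. The hepatocyte markers summed to 140279 to 145457 CPM in the ethanol livers and 76271 to 89059 in the controls. The ribosomal protein members summed to 12800 to 14185 and 7130 to 7927. On the same TMM scale all rows tested summed to 1196120 to 1302480 in the ethanol livers and 789960 to 794860 in the controls. All sums of CPM given here carry this difference. Of 10 Kupffer cell markers, none were higher and 2 lower (summed CPM 123 to 168 against 153 to 170). With library size alone, 2 hepatocyte markers were higher and 1 lower, 8 Kupffer cell markers were lower, and 6 endothelial and 5 stellate cell markers were lower, where 48.3% of all rows were. Endothelial markers gave 2 higher and 3 lower of 9 (136 to 224 against 162 to 180), stellate cell markers 2 and 2 of 8 (201 to 246 against 178 to 211), and cholangiocyte markers 1 higher of 6 (57.9 to 75.9 against 31.9 to 73.7). The 8 T cell markers summed to 0.785 to 1.39 against 2.36 to 3.07 CPM, with 1 lower of the 4 that were tested. B cell markers summed to 4.36 to 6.23 against 5.86 to 7.57, with 1 of 7 lower.
Of 8 neutrophil markers, 5 passed the count filter and 4 of these were higher with TMM (21.5% of all rows). The summed CPM of the 8 was 3.06 to 14.9 against 1.21 to 1.72. The filter keeps a row that is high in 1 group alone, so the share of 4 of 5 depends on it. Library size alone also gave 4 of 5 higher (7.39% of all rows). Mpo and Elane, which are made in neutrophil precursors, had no count in any ethanol library and 0 to 10 counts in the controls. Of 7 erythroid markers, 5 were tested and 4 of these were higher with TMM, all globin genes. The 7 summed to 579 to 863 against 180 to 220 CPM. Library size alone gave 4 higher and 1 lower. Slc4a1 had no count in the ethanol livers and 0 to 8 counts in the controls. Of 4 nuclear retained RNAs, Malat1 was higher and Neat1 lower with TMM (184 to 309 against 398 to 530 CPM in sum). Library size alone gave 0 higher and 1 lower of the 4. The part of these cell types in the change of the ribosomal protein genes was not tested.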

How the data were processed

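Liver RNA of 3 ethanol and 3 control mice was measured by RNA-seq on 1 platform. For each Ensembl gene the authors deposited a raw read count and an FPKM value, after removal of adaptor, low-quality and ambiguous reads. The aligner, the counting tool and its use of strand are not given in the sources used here. Submitters' processing notes name GRCm38 and mm10, but gene positions matched GENCODE M21, a GRCm38 annotation, for only 494 of 26115 shared nuclear genes. Positions are therefore given as in the deposited table, apart from the RefSeq windows. A column of counts (1 in number) matched no sample and was not used.

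Members and gene lists were chosen with earlier results of these data known. Counts were kept by filterByExpr, scaled by TMM and tested by edgeR 4.0.16 (quasi-likelihood, R 4.3.3) without covariates, 3 against 3, with Benjamini-Hochberg adjustment over all 16717 rows. Nothing in the labels says more of the replicates than that they are separate mice. The length trend was a lowess (span 0.3) per library of log2 CPM, minus the mean of the 6 libraries, on log10 length, entered as offsets. Length was taken from each count and FPKM. A stricter call asked in addition for a change of more than 1 on the log2 scale. Alternatives used limma 3.58.1 on log2(FPKM + 1) and log2(FPKM + 0.1), DESeq2 1.42.0, other scalings and filters, left-out libraries, and pseudogene counts added to members. The 222 pseudogene rows, taken as those named for a member with the suffix -ps, held 6.98% as many counts as the members. Any pseudogene under another name was not counted. Counts per library of 60514417 or more leave counting error small, so the number of mice limits precision. Genes were named by the highest level and the highest and lowest fold changes in each subunit, the P stalk and Rpsa, paralogs with their parents, 8 members known outside the ribosome, those missed by name, and up to 4 abundant genes per list. A few genes that this rule names are not reported here.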

Additional observations from a re-analysis of the deposited data

How the results depend on the processing

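The members stayed mostly higher under every filter, tool and left-out library that kept TMM or a similar scaling, while scaling set the size and often the call. With median ratio scaling and with DESeq2 no named gene lost its call. With library size alone 16 members were higher, 4 lower, 1 past a log2 fold change of 1, and the median was 0.21. With limma on log2(FPKM + 1) these were 19, 4, 1 and 0.21, and with limma on log2(FPKM + 0.1) 19, 4, 1 and 0.21, where 9.12% and 9.08% of the 10072 rows were higher and 58.5% and 58.0% lower. Upper quartile scaling left 8 past 1 and a median of 0.78, and a mean FPKM of 5 or more left 1 lower, 3 past 1 and 0.61. No filter left 1 lower. Removal of the length trend left 1 lower and a median of 0.79, removal on the spliced mRNA length (added after the data were seen) 1 lower, 7 past 1 and 0.63, and removal on length and abundance 48 higher, 3 lower, 2 past 1 and 0.33. The cause of these moves was not tested. Leaving out 1 library at a time gave 1 to 2 lower members with TMM and 1 to 2 without the length trend, where the median was 0.75 to 0.86.

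The replicate numbers did not pair the mice (correlations of deviations -0.03, -0.02 and -0.02), and a replicate block left 80 members higher and 1 lower, with a distance of 0.95 from the median of all rows.

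Members with a positive value fell from 83 with TMM to 71 with library size alone. Among the genes named by rule, those that changed sign with library size alone, limma (+ 1) and limma (+ 0.1) were as follows, and the other members that did so with library size alone were Rpl15 (-0.067), Rpl21 (-0.047), Rpl26 (-0.0051) and Rpl29 (-0.0043). Rpl4 had -0.014, -0.024 and -0.024, Rplp0 -0.019, -0.022 and -0.022, Rpl3 -0.14, -0.15 and -0.15, and Rpl36al -0.10, -0.11 and -0.11. Rpl22 had -0.084, -0.082 and -0.087, Rps26 -0.20, -0.20 and -0.20, Rpl7 -0.023, -0.035 and -0.035, and Rps19bp1 -0.41, -0.35 and -0.40. Eef1a1 had -0.037, -0.051 and -0.051, Pabpc1 -0.41, -0.40 and -0.41, Ncl -0.55, -0.51 and -0.56, Mlx -0.092, -0.089 and -0.094, Mrpl12 -0.26, -0.25 and -0.26, and Mrps7 -0.54, -0.52 and -0.54. With limma alone, Rps4x had -0.0094 and -0.0096, Mxi1 -0.0018 and -0.0049, and Mrpl38 -0.15 and -0.16. With a mean FPKM of 5 or more, Rps19bp1 lay at -0.010, Pabpc1 at -0.014, Ncl at -0.16 and Mrps7 at -0.14. Rpl7a lay at 0.61 without the second control, 0.15 with the replicate block and 0.54 with pseudogene counts added. With 1 library left out at a time, Rpl7a ranged from -0.26 to 0.61, Rpl37rt from -0.40 to 1.81 and Polr1a from -0.30 to 0.11, the last 2 changing sign without the second ethanol library. Polr1a lay at 0.11 without the spliced length trend and at 0.12 without the length trend. With 3 mice a group, precision is set by the mice, and for Rpl37rt, Rps23rg1 and the untested members also by their low counts.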
